A study of Mus musculus with 3 samples.

Results

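The genes for glutamate and GABA receptors were followed across the nucleus types of mouse sympathetic ganglia. They were taken by symbol from the gene list of the ganglia library, as the symbols of the AMPA (Gria), kainate (Grik), delta (Grid), NMDA (Grin) and metabotropic (Grm) glutamate receptors and of the GABA-A (Gabr) and GABA-B (Gabbr) receptors, with antisense transcripts left out. Of 32285 listed genes, 48 matched. Of these, 47 encode receptor subunits, and the remaining gene, for a scaffold protein, matched by its symbol. The rule reads symbols, not levels. In the nuclei kept, 44 of the 48 genes had at least 1 UMI (unique molecular identifier, a counted RNA molecule) and 34 had at least 20 UMIs. The remaining 10 detected genes had 1 to 19 UMIs, and Gabra6, Gabrr3, Grm2 and Grm6 had 0.

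The ganglia library held nuclei from 30 mice, pooled before capture, under labels that name both RHS and MC903; the preparation text speaks of MC903 challenge alone. The labels do not spell out RHS. MC903 is calcipotriol, a vitamin D analogue used on mouse skin to raise a dermatitis-like inflammation. The ganglia are given as SCG, STG, T2-T4 and CG. Of the skin libraries, both of cells selected on CD45 beads, one came from mice under RHS and MC903 and the other from MC903 controls. All 3 groups share MC903, each is a single library, and the ganglia have no partner group, so no test between conditions was possible and intervals below cover counting error alone.

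Glutamate is the main excitatory transmitter of the brain and GABA its main inhibitory one, whereas fast transmission in sympathetic ganglia runs mainly on acetylcholine at nicotinic receptors. AMPA, kainate and NMDA receptors are glutamate-gated cation channels, delta receptors bind cerebellins across the synapse, and metabotropic receptors signal through G proteins. A typical GABA-A receptor is a chloride channel built from alpha, beta and gamma subunits, and a working GABA-B receptor needs both Gabbr1 and Gabbr2. An NMDA receptor needs Grin1 together with a Grin2 or a Grin3 subunit. Satellite glia wrap the cell bodies of ganglion neurons and take up transmitter and potassium around them.

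The results below set the noradrenergic neurons of the ganglia against their glia, and the promoters of 4 genes from opposite ends of that contrast are shown to place it on the genome. Grm7 and Gria4 had the highest noradrenergic levels, not divided by gene length, of the genes that were highest in noradrenergic nuclei. Grik3 and Gabrb1 had their highest level in glia and were at least 2-fold lower in noradrenergic nuclei than in all others. Highest here means highest of the named nucleus types with at least 50 nuclei. Each sequence is the RefSeq promoter window on GRCm38.p6, from 250 bases before to 50 bases after the transcript start, written 5′ to 3′ on the gene's strand. CG pairs, the sites of DNA methylation, are in capitals.
Grm7: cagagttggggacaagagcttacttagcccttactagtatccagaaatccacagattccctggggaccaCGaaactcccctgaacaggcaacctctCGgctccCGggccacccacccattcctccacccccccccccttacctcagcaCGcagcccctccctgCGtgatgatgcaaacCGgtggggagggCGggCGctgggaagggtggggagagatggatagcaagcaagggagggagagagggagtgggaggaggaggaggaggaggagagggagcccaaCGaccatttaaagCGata
Gria4: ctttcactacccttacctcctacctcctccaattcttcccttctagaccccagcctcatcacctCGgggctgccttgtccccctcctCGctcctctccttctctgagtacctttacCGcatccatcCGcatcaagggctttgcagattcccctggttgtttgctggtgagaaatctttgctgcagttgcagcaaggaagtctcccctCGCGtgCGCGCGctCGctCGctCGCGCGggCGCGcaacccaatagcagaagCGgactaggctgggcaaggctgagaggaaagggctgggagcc
Grik3: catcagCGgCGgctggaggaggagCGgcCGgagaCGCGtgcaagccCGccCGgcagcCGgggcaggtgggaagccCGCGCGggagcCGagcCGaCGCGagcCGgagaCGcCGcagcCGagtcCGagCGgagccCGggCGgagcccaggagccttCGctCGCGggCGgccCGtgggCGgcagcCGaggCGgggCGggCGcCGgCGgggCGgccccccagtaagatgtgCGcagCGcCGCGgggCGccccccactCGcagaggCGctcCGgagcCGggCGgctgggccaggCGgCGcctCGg
Gabrb1: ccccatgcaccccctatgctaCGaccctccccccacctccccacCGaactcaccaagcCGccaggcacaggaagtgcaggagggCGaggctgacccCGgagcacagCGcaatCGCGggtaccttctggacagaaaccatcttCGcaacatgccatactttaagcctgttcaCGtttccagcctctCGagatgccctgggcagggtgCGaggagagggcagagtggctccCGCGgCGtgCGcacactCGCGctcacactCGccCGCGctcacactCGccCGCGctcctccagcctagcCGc

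The Grm7 window lies at chr6:110645262-110645561 on the plus strand and holds 10 CG pairs at 61.0% GC. That of Gria4 is at chr9:4796185-4796484 on the minus strand, with 17 CG pairs at 59.7% GC. The windows shown are the most upstream of each gene. Grik3, at chr4:125490446-125490745 on the plus strand, has 50 CG pairs at 82.0% GC, and Gabrb1, at chr5:71657671-71657970 on the plus strand, has 25 CG pairs at 66.0% GC. RefSeq has a further window for Grm7, with 15 CG pairs, and for Gabrb1, with 9, so the order of these genes by CG pairs depends on the window. Of 32851 RefSeq promoter windows, 43.5% hold at least as many CG pairs as Grm7, 31.4% as Gria4, 18.4% as Gabrb1 and 0.855% as Grik3. A RefSeq window was found for 33 of the 48 genes. The 41 windows of these genes had a median of 12 CG pairs, and the median of all windows was 7. The core of the Sox motif, ACAAAG, and an E-box bound by Hand factors, CATCTG, were searched on both strands. Neither occurs in the 4 windows shown, which says only that these letters are not there. Each motif was found in 3 of the 41 windows (7.32%), against 18.7% of all windows for the Sox core and 17.2% for the E-box. Median GC was 60.7% in the 41 windows and 52.7% in all windows, and its part in these shares was not tested. Methylation and factor binding were not measured in these samples.

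The ganglia library held 4706 barcodes and 11101393 UMIs, of which 4507 nuclei with 10425432 UMIs were kept, at a median of 1542 UMIs. The nuclei formed 23 clusters, which gave 19 named types and 3 unnamed clusters, with the receptor genes kept out of the clustering. Although the label of the sample is neuron, 112 nuclei (2.485%) were noradrenergic neurons. These had UMIs of all 12 noradrenergic markers, and 531 to 62390 UMIs each with a median of 10528.5. Satellite or non-myelinating glia, 243 nuclei with a median of 1295 UMIs, had Cdh19 at 3637 CPM (UMIs of a gene per 1000000 UMIs of the type). The other types included 830 white adipocyte, 549 C7 and Epha3 fibroblast, 476 brown adipocyte and 367 macrophage nuclei, among others. One unnamed cluster of 132 nuclei was led by Gsto1 and Sprr2f. It had UMIs of all 12 noradrenergic markers, at a median of 1.15 times the level of the noradrenergic nuclei. However, its Syt1, a synaptic vesicle gene, was at 0.128 times the noradrenergic level. Its erythroid markers summed to 9006 CPM, against 228 CPM in noradrenergic nuclei. It was given no name, since its best-matching list was that of erythroid cells. Another unnamed cluster of 17 nuclei, led by Car10 and Cntnap5b, was rich in receptor transcripts. Noradrenergic markers also appeared in the non-neuronal types, at a median of 0.141 times the noradrenergic level in macrophages and up to 0.566 times in neutrophils, as free RNA would give; its part was not tested.

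Receptor transcripts were concentrated in the neurons and, with a different set of genes, in the glia. Summed over the 48 genes, noradrenergic nuclei had 7458 CPM (95% exact Poisson interval 7324 to 7593), glia had 5720 CPM (5491 to 5956), and all nuclei other than the noradrenergic ones had 939 CPM. The ratio of noradrenergic to other nuclei was 7.94 (95% conditional binomial interval 7.72 to 8.17), or 12.9 when the level expected from free neuronal RNA was subtracted from the non-neuronal types. That subtraction can only raise the ratio. It took the median fraction of the noradrenergic markers in each type, which did not hold for all receptor genes, so 12.9 is not a corrected estimate. Noradrenergic nuclei were 1.30 times as high as glia (1.25 to 1.36). Glia were 8.10 times as high as all nuclei outside both classes (7.72 to 8.50). Those nuclei include the unnamed clusters, of which the Car10 and Cntnap5b cluster alone held 1546 receptor UMIs. The remaining named types with at least 50 nuclei ranged between 255 CPM in brown adipocytes and 1199 CPM in perineurial cells.

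Of the 34 genes with at least 20 UMIs, 19 were at least 2-fold higher in noradrenergic nuclei than in all others, against 12.8% of 15470 genes with at least 20 UMIs. A further 11 were at least 2-fold lower, where the share of all genes was 41.1%, and 4 lay between. The median log2 ratio was 1.64 over the 34 genes and -0.73 over all genes. Among the higher genes were all 4 AMPA genes, 4 of 5 kainate genes, Grid1, Grin1 and Grin3a, Grm3, Grm4 and Grm7, and Gabbr2. Of the 19 higher genes, 12 had their highest level of the named types with at least 50 nuclei in the noradrenergic class. In glia, 8 of the 34 genes were at least 2-fold higher than in all other nuclei, against 8.18% of all genes. At least 1 receptor UMI was found in 112 of 112 noradrenergic nuclei (100%, Clopper-Pearson interval 96.8 to 100%) and in 233 of 243 glial nuclei (95.9%, 92.6 to 98.0%). With each nucleus thinned to 900 UMIs, which left out 1040 shallower nuclei, the shares were 100% of 110 noradrenergic and 96.1% of 181 glial nuclei, and between 22.6% and 57.7% in the other named types of at least 50 nuclei.

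**Figure D1:**
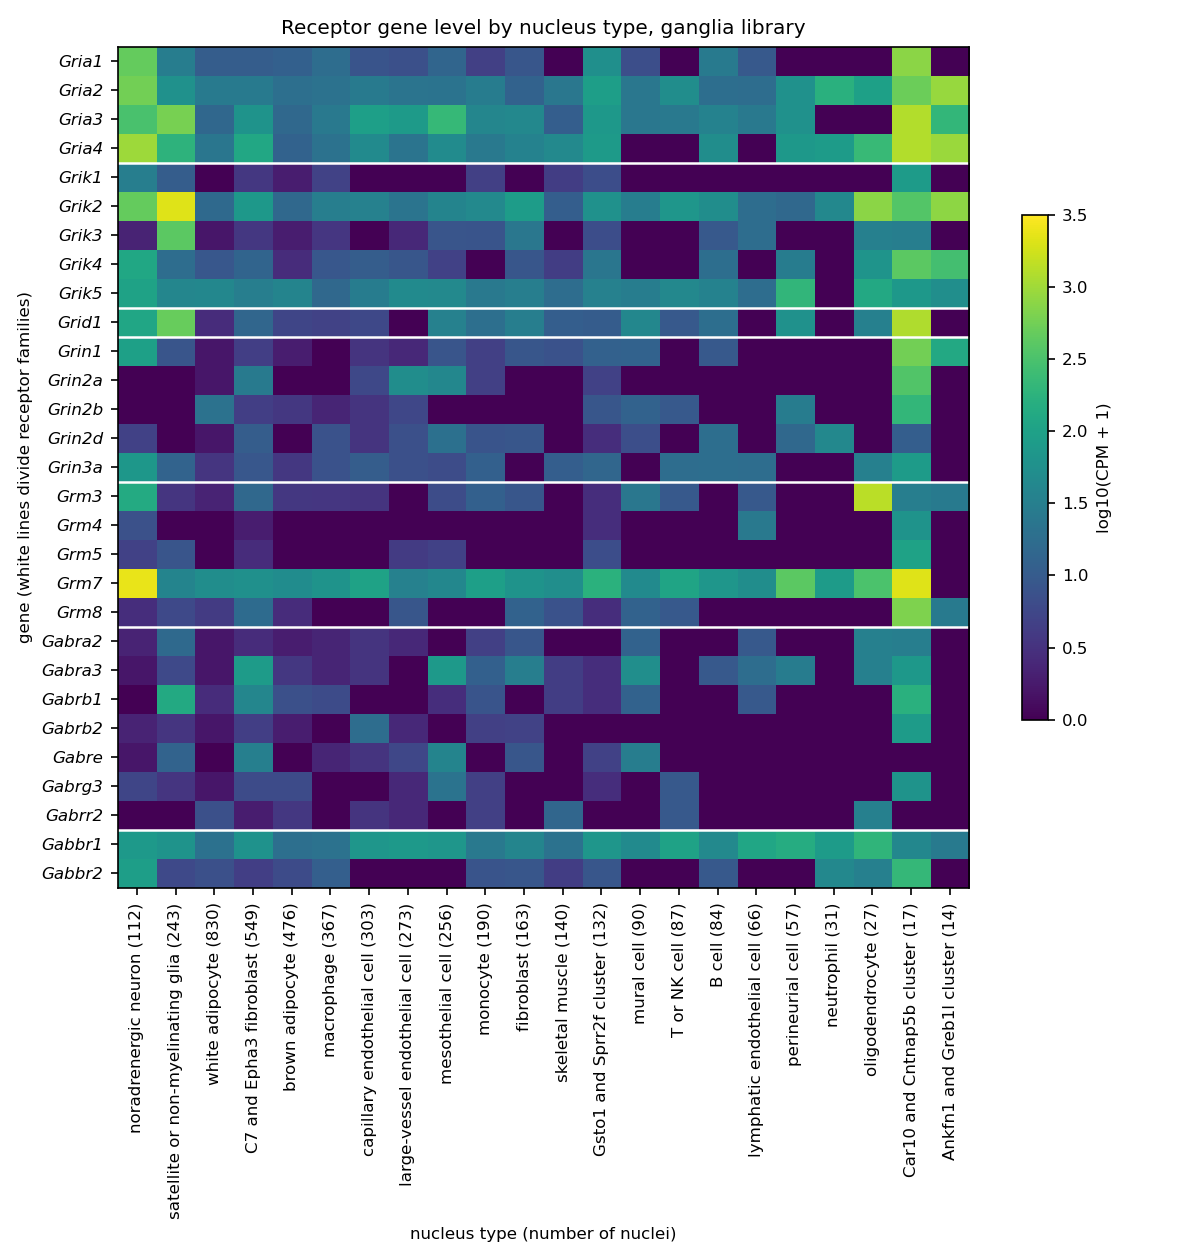
Level of the receptor genes reported here with at least 20 UMIs, in each nucleus type of the ganglia library, as the log10 of CPM + 1 in colour, with genes in rows, white lines between families, and types in columns with their numbers of nuclei. Grm7 reaches 2384 CPM in the noradrenergic column, Grik2 and Grik3 reach 2108 and 411 CPM in the glia column, and the named types of at least 50 nuclei other than these sum to 255 to 1199 CPM.

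The metabotropic gene Grm7 stood first of all by CPM, though not per kilobase of gene span. It encodes a presynaptic glutamate receptor that lowers cyclic AMP and transmitter release and responds only to high glutamate. Noradrenergic nuclei had 3795 Grm7 UMIs, or 2384 CPM (2309 to 2461), in 104 of 112 nuclei. Glia had 15 UMIs, or 36.5 CPM, in 10 of 243 nuclei. The noradrenergic level was 26.8 times that of all other nuclei (24.8 to 28.9) and 65.3 times that of glia (39.5 to 117). In glia, Grm7 was at 0.0153 times its noradrenergic level, where the median noradrenergic marker was at 0.563 times and Dbh, the enzyme that makes noradrenaline, at 0.721 times. After thinning to 900 UMIs, 70.9% of noradrenergic and 3.31% of glial nuclei had a Grm7 UMI.

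The rest of the metabotropic family was uneven. Grm3, which also lowers cyclic AMP, had 221 UMIs and 139 CPM in 59 noradrenergic nuclei and 1 UMI in glia, and was 14.1 times as high in noradrenergic as in other nuclei (11.0 to 18.3). Its level was higher still in the 27 nuclei named oligodendrocytes, at 1388 CPM (1004 to 1870) in 16 of them. That name rests on 7 of 8 listed markers, and the tissue these nuclei came from was not tested. Grm4 had 10 UMIs in noradrenergic nuclei (6.28 CPM) and 11 in all others. Grm5, which raises calcium through phospholipase C, had 6 UMIs in noradrenergic nuclei. Grm8, a presynaptic receptor related to Grm7, had 3. Noradrenergic nuclei were at 0.156 times the level of other nuclei for Grm8 (0.0316 to 0.467) and 1.51 times for Grm5 (0.502 to 3.85). The 17 nuclei of the Car10 and Cntnap5b cluster held 60.7% of the Grm8 UMIs outside the noradrenergic class. When nuclei were filtered at 500 genes or at a mitochondrial share of 1%, the direction turned, with ratios of 8.32 and 9.07 for Grm8. The noradrenergic class then took in nuclei of the Car10 and Cntnap5b cluster among others, and their part was not tested.

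All 4 AMPA genes were higher in noradrenergic nuclei. Gria4 led by CPM, though not per kilobase of gene span. It was at 963 CPM in 105 of 112 noradrenergic nuclei and 183 CPM in 43 of 243 glial nuclei. Its level was 14.4 times as high in noradrenergic as in all other nuclei (13.1 to 15.8). Gria2, whose edited subunit keeps calcium out of the channel, followed with 569.8 CPM in 97 noradrenergic nuclei and 58.4 CPM in glia, a ratio to all other nuclei of 14.6 (12.9 to 16.6). Gria1 was at 473 CPM in 88 noradrenergic nuclei and 29.2 CPM in glia, 22.0 times as high as in all others (18.7 to 25.9). Gria3 differed from these 3 genes. It was at 312 CPM in noradrenergic nuclei and at 596 CPM (524 to 676) in glia, a ratio of 0.52 to glia (0.45 to 0.61) and of 3.48 to all other nuclei. Summed AMPA transcripts were at 2318 CPM in noradrenergic nuclei and 867 CPM in glia. An AMPA UMI was found in 112 of 112 noradrenergic nuclei and in 145 of 243 glial nuclei (59.7%).

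The kainate genes split between the neurons and the glia. Grik2, which encodes a subunit able to form channels on its own, was at 469 CPM in 99 of 112 noradrenergic nuclei and at 2108 CPM (1970 to 2253) in 196 of 243 glial nuclei, the highest level of any receptor gene in glia. The noradrenergic level was 0.22 times that of glia (0.20 to 0.25) and 3.34 times that of all nuclei outside the class. Grik3 was nearly limited to glia, with 2 UMIs in noradrenergic nuclei and 169 UMIs in 93 glial nuclei, or 411 CPM (352 to 478), and noradrenergic nuclei were at 0.0558 times the level of all others (0.0067 to 0.204). The subunits Grik4 and Grik5, which reach high affinity for glutamate but need a Grik1, Grik2 or Grik3 partner, were both at least 2-fold higher in noradrenergic nuclei. Grik4 was at 120.0 CPM in noradrenergic nuclei and 17.0 CPM in glia, 8.41 times as high as in all others (6.68 to 10.6). Grik5 was at 104 CPM in noradrenergic nuclei and 38.9 CPM in glia, with 14 UMIs (202 CPM, 111 to 339) in the 57 perineurial nuclei. Grik1 had 49 UMIs in 16 noradrenergic nuclei, 30.8 CPM, against 9.74 CPM in glia. Summed kainate transcripts were at 724 CPM in noradrenergic nuclei and 2585 CPM in glia.

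The delta gene Grid1 was present in both classes and higher in glia. It was at 117 CPM in 46 noradrenergic nuclei and 487 CPM in 102 glial nuclei, a ratio of 0.24 (0.20 to 0.30). Against all nuclei outside the noradrenergic class the ratio was 2.60 (2.17 to 3.10).

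**Figure D2:**
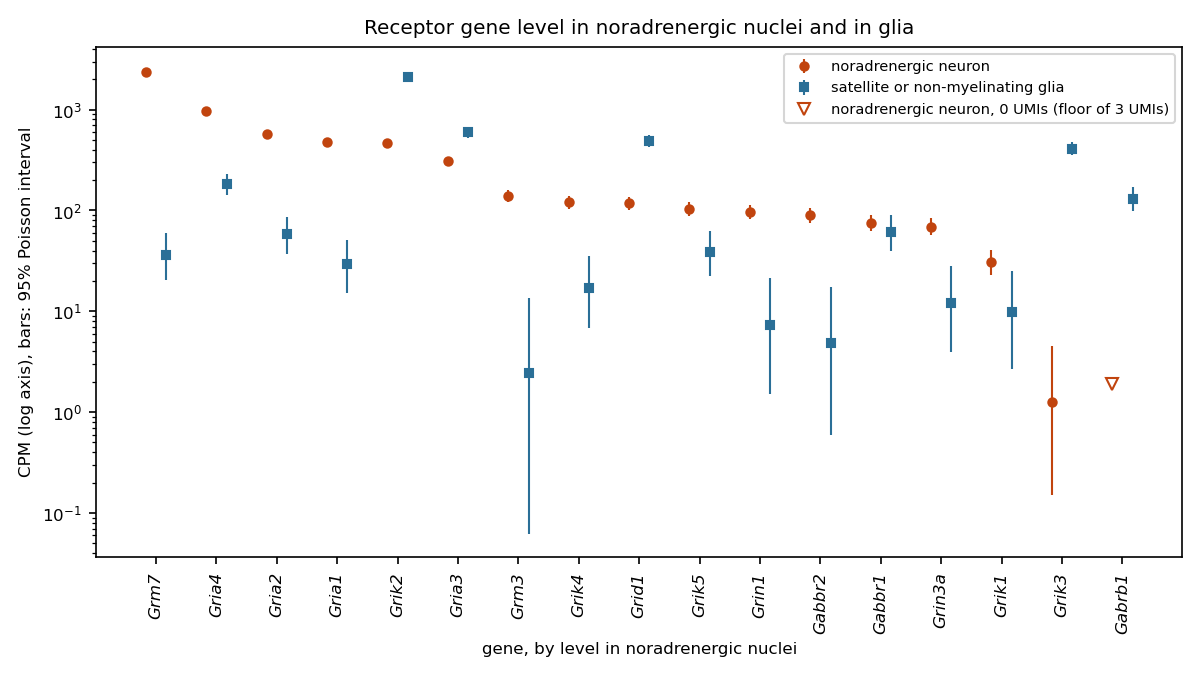
Level of the receptor genes in noradrenergic nuclei and in glia, for genes reported here with at least 20 UMIs in one of them, as CPM on a log axis with 95% exact Poisson intervals; open triangles mark 0 UMIs at the limit of 3 UMIs. Grm7, at 2384 CPM in noradrenergic nuclei and 36.5 CPM in glia, and Grik3, at 1.26 and 411 CPM, stand at opposite ends.

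The NMDA family was present as Grin1, the obligatory subunit, and Grin3a, with nearly no Grin2 transcript in the noradrenergic nuclei. Grin1 had 153 UMIs in 66 noradrenergic nuclei (96.1 CPM) and 3 in glia (7.30 CPM), and was 9.54 times as high as in all other nuclei (7.30 to 12.5). Grin3a, whose subunit lowers calcium entry, had 110 UMIs in 21 noradrenergic nuclei (69.1 CPM) and 5 in glia, 9.39 times the level of all others (6.85 to 12.97). The 4 Grin2 genes together, which carry the glutamate-binding site of a classical NMDA receptor, had 6 UMIs in 5 noradrenergic nuclei, all 6 of Grin2d. Both Grin1 and Grin3a were found in 12 of the 112 nuclei. Grin2a and Grin2b had 0 UMIs in noradrenergic nuclei and 125 and 74 UMIs in the other nuclei. Taking 3 counts over the class as the limit of detection, they were at least 7.51-fold lower and at least 4.44-fold lower in noradrenergic nuclei. Filtering nuclei at 500 genes or at 1% mitochondrial UMIs turned both directions, to ratios of 2.00 and 1.93 for Grin2a and 2.25 and 2.38 for Grin2b, with 17 and 16 of the Car10 and Cntnap5b nuclei then in the class.

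GABA-A alpha subunits, which with a beta subunit form the GABA-binding site, had few transcripts in the neurons. The 6 alpha genes together had 7 UMIs in 5 noradrenergic nuclei (4.46%, 1.47 to 10.1%). Noradrenergic nuclei had 2.51 CPM of Gabra5, from 4 UMIs, and 4.40 CPM of the gamma subunit gene Gabrg3, from 7 UMIs. For Gabrg3 the ratio to all other nuclei was 1.11 (0.416 to 2.54).

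Of the 9 GABA-A genes with at least 20 UMIs, 6 were at least 2-fold lower in noradrenergic nuclei, against 41.1% of all genes so counted. Gabra3 had 1 UMI there and 176 elsewhere, a ratio of 0.0315 (0.0008 to 0.178), and Gabre had 1 UMI there and 75 elsewhere, a ratio of 0.074 (0.0018 to 0.425). Gabrb1 had 0 UMIs in noradrenergic nuclei and 137 in the others, at least 8.23-fold lower, and Gabrr2 had 0 and 23, a count whose limit of 3 UMIs gives at least 1.38-fold lower. That bound does not reach 2-fold, so its place among the 6 rests on 0 UMIs of 23. With nuclei filtered at 500 genes or at 1% mitochondrial UMIs, Gabrb1 was no longer 2-fold lower, at ratios of 0.653 and 0.758. Gabra2 and Gabrb2 had 2 UMIs each in noradrenergic nuclei, with ratios of 0.483 (0.0551 to 1.95) and 0.444 (0.0510 to 1.78). Their intervals include equal levels, and filtering nuclei at 500 genes turned them to 1.22 and 3.06, as did the 1% mitochondrial filter for Gabrb2, at 4.52. Under either filter 4 genes of all families were still at least 2-fold lower in place of 11.

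Both GABA-B subunits were detected in the neurons, and glia had mainly one of them. Gabbr1, the subunit that binds GABA, was at 74.8 CPM in 62 noradrenergic nuclei and 60.9 CPM in 23 glial nuclei, a ratio of 1.23 (0.79 to 1.97). Gabbr2, the subunit that couples to the G protein, was at 89.2 CPM in 56 noradrenergic nuclei, with 142 UMIs, and at 4.87 CPM in glia, with 2 UMIs. Against all other nuclei Gabbr1 was 1.68 times as high (1.35 to 2.06) and Gabbr2 12.5 times (9.23 to 17.1). Both were found in the same nucleus in 40 of 112 noradrenergic nuclei (35.7%, 26.9 to 45.3%).

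Glia had their own profile, with Grik2, Gria3, Grid1 and Grik3 among its leading genes. Against all other nuclei, the neurons included, glia were 129 times as high for Grik3 (87.8 to 194), 18.8 times for Grik2 (17.2 to 20.6) and 12.6 times for Grid1 (10.6 to 15.0). For Gria3 the ratio was 5.72 (4.95 to 6.57). Of the named types with at least 50 nuclei, glia were also highest for Gabrb1, at 131 CPM against 0 UMIs in noradrenergic nuclei. However, its 54 UMIs in glia came from 8 nuclei, 16 of them from one. Gabra2 and Grm5, also highest in glia among the same types, rested on 6 and 3 UMIs. Noradrenergic RNA was also measured in glia, at a median fraction of 0.563 of the level of the noradrenergic markers in noradrenergic nuclei. At that fraction glia would have 264 CPM of Grik2, 176 CPM of Gria3, 66.2 CPM of Grid1 and 0.708 CPM of Grik3, where 2108, 596, 487 and 411 CPM were measured. It would also give 1344 CPM of Grm7 and 543 CPM of Gria4, where 36.5 and 183 CPM were measured. One fraction thus did not hold for all genes, and the part of free neuronal RNA in the glial levels was not tested.

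Other named types with at least 50 nuclei had lower summed receptor levels than noradrenergic nuclei and glia. Mesothelial nuclei had Gria3 at 221 CPM (183 to 265) in 56 of 256 nuclei, Gabra3 at 74.4 CPM and Gabbr1 at 67.0 CPM. In C7 and Epha3 fibroblasts Gria4 was at 125 CPM, Gabra3 at 82.0 CPM (66.2 to 100) in 45 of 549 nuclei and Grik2 at 72.3 CPM. Gabre, a GABA-A gene of the X chromosome as Gabra3 is, was highest in the same pair of types, at 37.2 CPM in mesothelial nuclei and 31.7 CPM in C7 and Epha3 fibroblasts. Noradrenergic nuclei had 1 UMI of Gabra3 and 1 of Gabre. The other fibroblasts had Grik2 at 84.7 CPM.

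Large-vessel endothelial nuclei had Gria3 at 80.0 CPM, Gabbr1 at 75.4 CPM and Grin2a at 50.8 CPM (35.0 to 71.3) in 22 of 273 nuclei. That was the highest Grin2a level of the named types with at least 50 nuclei, followed by 40.9 CPM in mesothelial nuclei. Capillary endothelial nuclei had Grm7 at 104 CPM, Gria3 at 93.9 CPM and Gabbr1 at 67.4 CPM. White adipocytes had Grm7 at 51.0 CPM and Grik5 at 41.3 CPM, and held 33 of the 74 Grin2b UMIs in 25 of 830 nuclei. Brown adipocytes had Grm7 at 49.1 CPM and Grik5 at 36.6 CPM. Macrophages had Grm7 at 61.4 CPM and Grik2 at 30.1 CPM, and monocytes Grm7 at 93.9 CPM. Perineurial nuclei had Grm7 at 419 CPM (281 to 602), but 21 of the 29 UMIs came from one nucleus. Over the named types with at least 50 nuclei other than the noradrenergic one, Grm7 stood at 0.0142 to 0.176 times its noradrenergic level, and Syt1, a synaptic vesicle gene, at 0.0217 to 0.0594 times. The part of free neuronal RNA in these low Grm7 levels was not tested.

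The Car10 and Cntnap5b cluster had the most receptor transcripts of all, 15855 CPM in 17 nuclei. It was given no name, since fewer than 3 markers of its best-matching class were present. Its noradrenergic markers summed to 441 CPM, against 3553 CPM in the noradrenergic class. Grm7 was at 2164 CPM (1882 to 2476), Gria4 at 1261 CPM, Gria3 at 1231 CPM and Grid1 at 1200 CPM. It also held genes that the noradrenergic nuclei lacked or nearly lacked, with Grm8 at 667 CPM in 14 nuclei, Grin2a at 359 CPM in 11 and Grin2b at 205 CPM in 10. All 11 Gabra5 UMIs found outside the noradrenergic class came from it. Grin1 was at 564 CPM, and 61.8% of the Grin1 UMIs outside the noradrenergic class were in this cluster. A cluster of 14 nuclei led by Ankfn1 and Greb1l had Gria4 at 939 CPM, Gria2 at 913 CPM and Grik2 at 808 CPM, with 0 UMIs of Grm7. Without the 3 unnamed clusters, 163 nuclei, the noradrenergic to other ratio of all receptor genes was 9.98 and 18 genes were at least 2-fold higher.

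Nuclear RNA can hold unspliced transcripts, so genes were compared with each other per kilobase of their GENCODE gene span. Unspliced reads were not measured, and across the 34 genes with at least 20 UMIs, in 1 library, Spearman's rho between noradrenergic CPM and span was 0.2025, given as a description. In noradrenergic nuclei Gria2 then came first, at 4.69 CPM per kb (4.39 to 5.01) over a span of 121 kb. Grin1 followed at 3.43 CPM per kb (2.91 to 4.02), although its level of 96.1 CPM put it at rank 13. Grm7, first by CPM, came at rank 3 with 2.59 CPM per kb (2.51 to 2.67) over 922 kb, and did not differ beyond counting error from Gabbr1 at 2.57 (2.13 to 3.07) and Gria4 at 2.55 CPM per kb (2.42 to 2.68). Grik2, with a span of 694 kb, stood at 0.675 CPM per kb, at rank 10. Next after Gria4 came Grik5 at 1.66, Gria1 at 1.48 and Gria3 at 1.12 CPM per kb. In glia Grik2 led on this scale as well, at 3.04 CPM per kb, with Gria3 at 2.15, Gabbr1 at 2.09 and Grik3 at 1.84.

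**Figure D3:**
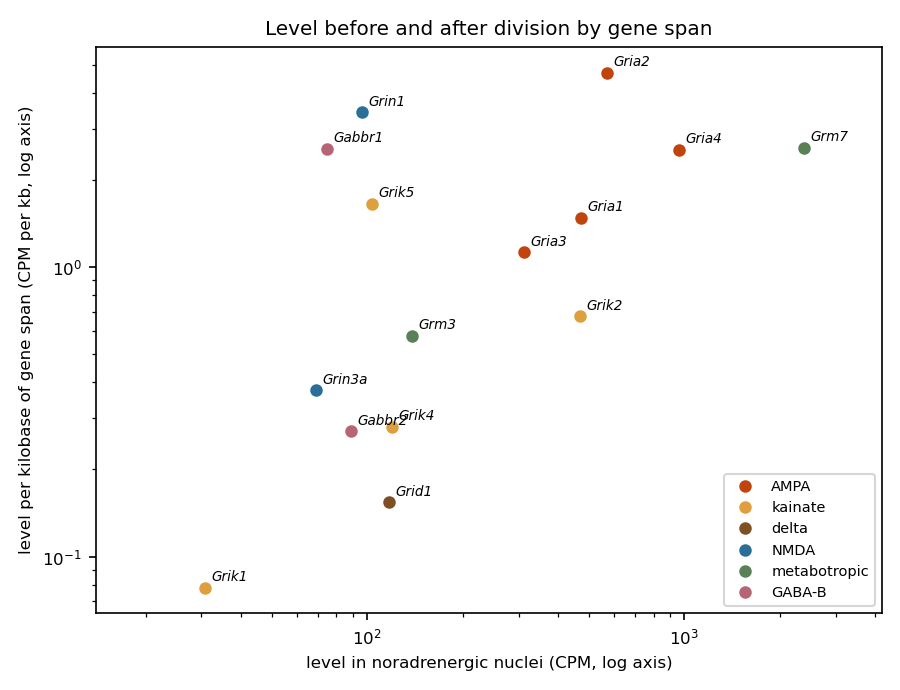
Level of the receptor genes reported here with at least 20 UMIs in noradrenergic nuclei, as CPM on the horizontal and as CPM per kilobase of gene span on the vertical axis, both log axes, coloured by family. Gria2 and Grin1 stand highest at 4.69 and 3.43 CPM per kb, and Grm7, Gabbr1 and Gria4 follow at 2.59, 2.57 and 2.55 CPM per kb.

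Single noradrenergic nuclei differed widely in these genes. Per 10000 UMIs of a nucleus, Grm7 had a lowest value of 0, a median of 16.5 and a highest of 180.3. Gria4 had a median of 7.18 and a highest of 34.5, and Gria2 4.55 and 20.0. Grik2 had a median of 3.76, Gria1 of 3.45 and Gria3 of 2.18. All of these had 0 in at least 1 nucleus. Grin3a and Grid1 had a median of 0. A single nucleus held 24.5% of the Grin3a UMIs, so the level of this gene leans on few nuclei.

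**Figure D4:**
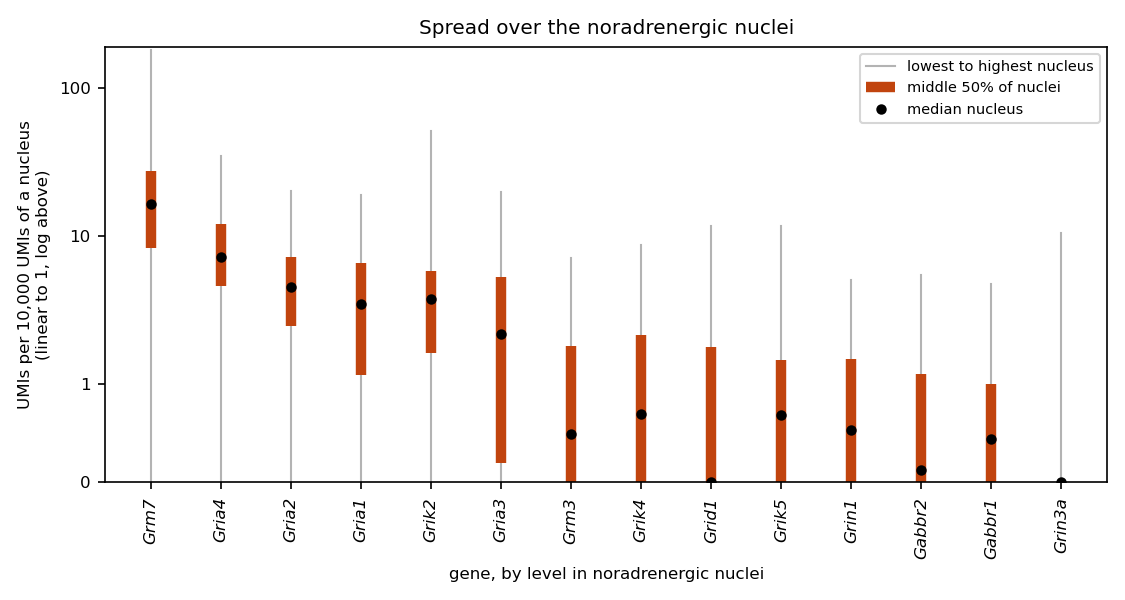
UMIs of the leading receptor genes reported here, per 10000 UMIs of a nucleus, over the 112 nuclei, on an axis linear up to 1 and log above. Thin lines run between the lowest and highest nucleus, thick bars cover the middle 50% of nuclei and points are medians: Grm7 has the highest median at 16.5 and reaches 180.3, and Grin3a and Grid1 have a median of 0.

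The noradrenergic nuclei fell into 3 sub-clusters, formed without the receptor genes: 54 nuclei led by Gal and Sctr, 33 led by Cntn4 and Gpc6, and 25 led by Csmd3 and Slc18a1. Grin3a differed most between them, at 8.07 CPM in the Gal, 87.9 CPM in the Cntn4 and 155 CPM in the Csmd3 sub-cluster, found in 3, 9 and 9 nuclei. The highest was 19.2 times the lowest (8.37 to 54.1), and 12.6 times when the nucleus with the most Grin3a was left out. Gabbr2 was at 90.1, 36.6 and 137 CPM in the same order, and its 3.73-fold range became 2.75-fold without the deepest nucleus. Grid1 was at 151, 46.4 and 128 CPM, and Gria3 at 165, 476 and 408 CPM. Grm7 was at 1703, 2528 and 3403 CPM. Gria2 was even, at 592, 545 and 556 CPM, with a ratio of 1.09 that includes 1 in its interval (0.92 to 1.28). Noradrenergic markers also differed, summing to 4174, 2299 and 3671 CPM. The chromaffin cell list summed to 129, 75.7 and 380.3 CPM with Pnmt, the adrenaline-making enzyme, at 0 in all 3. Their part in the receptor levels was not tested.

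**Figure D5:**
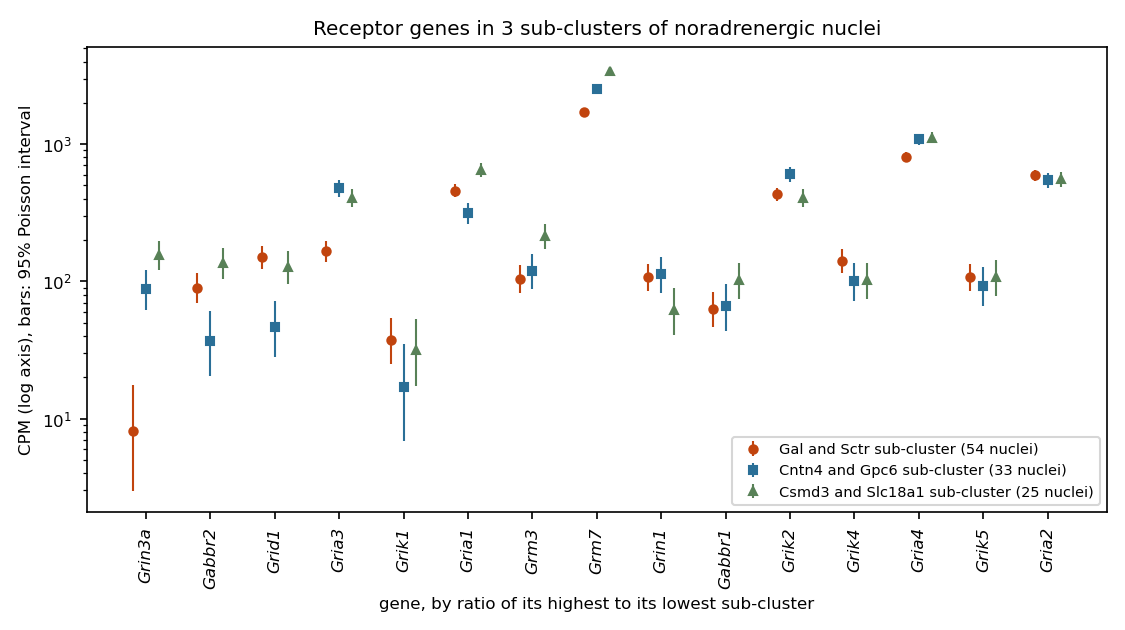
Level of the receptor genes reported here in the 3 noradrenergic sub-clusters, as CPM on a log axis with 95% exact Poisson intervals, in order of the ratio of the highest to the lowest sub-cluster. Grin3a spans 8.07 to 155 CPM, and Gria2 stays between 545 and 592 CPM.

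Partner genes of the receptors were read in the same nuclei, from lists of the machinery around glutamate and GABA. Of the glutamate receptor auxiliary subunits and scaffolds, 27 of 33 had at least 20 UMIs, 16 of these were at least 2-fold higher in noradrenergic nuclei and 5 lower, with a median log2 ratio of 1.97. Of all genes with at least 20 UMIs, 12.8% were higher and 41.1% lower, at a median log2 ratio of -0.73. Dlg2, the scaffold PSD-93, was at 4391 CPM in noradrenergic and 216 CPM in other nuclei, 20.3 times as high (19.3 to 21.4). Dlgap1, which ties such scaffolds to Shank, was at 1313 and 168 CPM, and at 818 CPM in glia. Shisa9, an AMPA receptor auxiliary subunit, was at 212 CPM in noradrenergic and 13.4 CPM in other nuclei, and Grip1, which binds Gria2 and Gria3, at 176 and 35.5 CPM. Neto1, a kainate receptor auxiliary subunit, had 0 UMIs in noradrenergic nuclei and 53 elsewhere.

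The GABA receptor partners were counted in the same way, beside 12.8% of all genes higher and 41.1% lower. All 16 had at least 20 UMIs, with 3 at least 2-fold higher, 5 lower and a median log2 ratio of -0.29. Kctd16, an auxiliary subunit of GABA-B receptors, was at 597 CPM in noradrenergic and 20.5 CPM in other nuclei, 29.1 times as high (24.8 to 34.3). Its relative Kctd12 was at 1.26 and 21.1 CPM. Gphn, the scaffold that gathers GABA-A and glycine receptors, was at 792 CPM in noradrenergic and 1747 CPM in other nuclei, 0.45 times (0.43 to 0.48). Plcl1 and Trak1, which take part in the trafficking of GABA-A receptors, were at 429 and 96.1 CPM in noradrenergic nuclei and at 298 and 175 CPM in the others.

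Transcripts of the GABA-making enzymes and of the vesicular carriers were sparse. Gad1, which makes GABA, had 0 UMIs in all nuclei and its relative Gad2 had 2 in noradrenergic nuclei and 8 in all. Of the vesicular carriers, Slc17a7 had 0 UMIs, Slc32a1 had 2 and Slc17a6 had 5, none of them in noradrenergic nuclei, and Slc17a8 had 4 in noradrenergic nuclei of 24 in all. Glud1, Got2 and Got1, which convert glutamate in metabolism, were at 72.9, 30.8 and 18.2 CPM in noradrenergic nuclei. Of 6 genes for glutamate synthesis and loading with at least 20 UMIs, 1 was at least 2-fold higher (Gls2, 12.6 against 1.92 CPM) and 1 lower (Glud1, 0.48 times). Of all genes, 12.8% were higher and 41.1% lower, and nothing is read from counts this small. Of the GABA list, 2 of 5 had at least 20 UMIs. Abat, which breaks GABA down, was higher at 71.0 CPM in noradrenergic and 24.3 CPM in other nuclei, and Aldh5a1, the next enzyme, lower at 3.14 and 9.51 CPM.

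The uptake genes were set beside all genes with at least 20 UMIs, of which 12.8% were at least 2-fold higher in noradrenergic nuclei and 41.1% lower. Nothing is read from the counts in lists this short. For glutamate and glutamine, 8 of 11 genes had at least 20 UMIs, with 1 at least 2-fold higher and 4 lower in noradrenergic nuclei. Slc1a3, a glutamate transporter, was at 33.9 CPM in noradrenergic and 1030.4 CPM in other nuclei, 353 CPM in glia and 3059 CPM in white adipocytes. Slc1a2, the main glutamate transporter of astrocytes, was at 3.14 CPM in noradrenergic nuclei and at its highest level in glia, 112 CPM. Glul, which makes glutamine, was at 26.4 CPM in noradrenergic and 252 CPM in other nuclei. The glutamine carriers Slc38a2 and Slc38a1 were at 100.5 and 58.4 CPM in noradrenergic nuclei. For GABA, 5 of 6 genes had at least 20 UMIs, with 1 higher and 2 lower. The taurine carrier Slc6a6 was at 94.9 CPM in noradrenergic and 139 CPM in other nuclei. Slc6a8, a creatine carrier, was at 11.9 CPM in noradrenergic nuclei, Slc6a12 at 5.65 CPM and Slc6a13 at 1.26 CPM.

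Chloride transport genes bear on the direction of current through GABA-A channels. All 8 had at least 20 UMIs, with 1 at least 2-fold higher and 4 lower in noradrenergic nuclei and a median log2 ratio of -1.30. Of all genes, 12.8% were higher and 41.1% lower, and nothing is read from the difference in so short a list. Slc12a2, which carries chloride into cells, was at 30.2 CPM in noradrenergic and 121 CPM in other nuclei, 0.249 times (0.182 to 0.332). Slc12a5, the neuronal carrier that moves chloride out, had 23 UMIs in all nuclei and was at 0.628 CPM in noradrenergic nuclei. Its relative Slc12a4, with the lowest ratio of the list, was at 5.03 CPM in noradrenergic and 24.2 CPM in other nuclei. Wnk1, a kinase that governs these carriers, was at 341 CPM in noradrenergic and 525 CPM in other nuclei, and the chloride exchanger Clcn3 at 187 and 138 CPM.

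Other ligand-gated channels were read as a scale for the receptor genes. Of 34 such genes, 16 had at least 20 UMIs, 9 were at least 2-fold higher in noradrenergic nuclei and 5 lower, with a median log2 ratio of 1.45 where that of the glutamate and GABA receptors was 1.64. The shares of all genes with at least 20 UMIs were 12.8% higher and 41.1% lower, at a median log2 ratio of -0.73. Asic2, an acid-sensing channel subunit, was at 1792 CPM in noradrenergic and 93.1 CPM in other nuclei, 19.3 times as high (17.8 to 20.8). The nicotinic gene Chrna7 was at 205 and 10.9 CPM and Chrna3, part of the main ganglionic acetylcholine receptor, at 121 and 39.1 CPM. Htr3b, a serotonin-gated channel subunit, was at 101 and 7.47 CPM, and P2rx6, an ATP-gated channel subunit, had 0 UMIs in noradrenergic nuclei and 32 elsewhere. Of 10 pan-neuronal genes, 6 were at least 2-fold higher in noradrenergic nuclei and 0 lower, with Syt1 at 7813 CPM in noradrenergic and 317 CPM in other nuclei.

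In the skin libraries of CD45-selected cells, which used another capture chemistry and are not set on 1 scale with the ganglia, the receptor genes were sparse. They summed to 40.8 CPM (2152 of 52762576 UMIs) in skin under RHS and MC903 and to 48.0 CPM (2648 of 55200784 UMIs) in MC903 control skin. Of 19 genes with at least 20 UMIs in one of the skin libraries, 1 was at least 2-fold higher under RHS, against 0.991% of all genes so tested, and 4 were at least 2-fold lower, against 6.68%. Gabra3 had 79 UMIs under RHS and 37 in the control, a ratio of 2.23 (1.49 to 3.40). Grik5 had 71 and 166 UMIs, a ratio of 0.448 (0.334 to 0.594), and Grid1 had 36 and 84, Grik4 19 and 40, and Grin3a 4 and 20. Grik3 was at 8.53 CPM under RHS and 6.90 CPM in the control (1.24, 1.08 to 1.42), and Gabbr1 at 14.9 and 16.9 CPM. With 1 library in each group, differences between mice or preparations cannot be told apart from RHS.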

How the data were processed

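Nuclei and cells were counted as UMIs per gene. The raw UMI counts are as the authors deposited them, from Cell Ranger 7.1.0 for the ganglia per the file headers; the submitters' processing notes name GRCm39, R 3.6.0 and Seurat 5.1.0. Nuclei with under 200 genes (1) or over 5% mitochondrial UMIs (196) and 2 Scrublet doublets (0.0444%, so doublets were hardly separated) were removed. Clustering used scanpy 1.11.5 with 2000 variable genes, 30 components, 15 neighbours and Leiden resolution 1.0, leaving out 135 genes, the members and partner lists. Clusters were named from marker lists when at least 3 markers were present, by rules set after seeing the clusters. Members, lists and rules for naming genes were chosen with earlier results of these data known. Counts were summed per type as CPM, with no test, since each group is 1 library. Genes at or above 2-fold with at least 20 UMIs were counted. Values are given for the 12 members highest in noradrenergic nuclei, the 3 highest with at least 20 UMIs in each other type and those highest elsewhere with at least 50 UMIs, and for the 4 highest genes and the lowest ratio of each list. Some members and list genes are counted and summed but not reported here by name. Members with fewer UMIs were named in addition after their values were seen. Gene spans and gene order come from GENCODE M21 on GRCm38, promoters from RefSeq, and no coordinate was moved between builds. Alternatives changed 1 choice at a time.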

Additional observations from a re-analysis of the deposited data

How the results depend on the processing

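The count of genes at least 2-fold higher in noradrenergic nuclei stayed between 17 and 26 over 14 alternatives (19 as reported), and that of genes highest there between 12 and 15 (12 as reported). The ratio of all members, noradrenergic to other nuclei, was 10.4 with at least 500 genes, 10.7 at 1% mitochondrial UMIs, 12.9 after free-RNA subtraction (which can only raise it), 8.24 without 327 marker-positive other nuclei and 6.86 as a mean over nuclei. Alternatives chosen after seeing the data gave 9.98 without the 3 unnamed clusters and 7.66 without the deepest noradrenergic nucleus. The noradrenergic sum was 7810 CPM with at least 500 genes, 8101 CPM at 1% mitochondrial UMIs, 6762 CPM as a mean over nuclei and 7193 CPM without the deepest nucleus. The 11 lower genes became 4 under either stricter filter and 20 with no filter on low counts. With at least 500 genes the ratio turned for Gabra2 (1.22), Gabrb2 (3.06), Grin2a (2.00), Grin2b (2.25) and Grm8 (8.32), and at 1% mitochondrial UMIs for Gabrb2 (4.52), Grin2a (1.93), Grin2b (2.38) and Grm8 (9.07). Under those filters the noradrenergic class held 141 and 132 nuclei, of which 17 and 16 were from the Car10 and Cntnap5b cluster and 13 and 23 from the Gsto1 and Sprr2f cluster. At 1% mitochondrial UMIs the class kept 93 of the 112 noradrenergic nuclei reported above. What moved or turned these values was not tested. Without division by length, Grm7 moved to rank 1. No paired analysis was possible because each group is 1 library.

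Depth limits the rarer genes: 1 UMI is 2.43 CPM in glia, which held 410822 UMIs, and 3 UMIs, the limit of detection, are 1.88 CPM in noradrenergic nuclei and 7.30 CPM in glia.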
